A study of Mus musculus with 2 samples.

Results

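The 8 tetraspanin genes Cd82, Cd9, Cd81, Cd63, Cd151, Cd53, Tspan3 and Tspan4 were followed in mouse muscle stem cells (MuSCs). They were taken by their gene symbols, and all 8 were found among the 20830 and 26997 genes of the 2 short-read tables. In the long-read table they were represented by 92 of 68065 isoforms. The MuSCs came from Pax7creERT2;R26-eYFP mice on a C57BL6 background, in which tamoxifen given at 3 months of age turns on YFP in cells that express Pax7, and were sorted on YFP. Quiescent cells were taken from uninjured hindlimb muscle. Activated cells were taken 72 h after 40 uL of 1.2% barium chloride was injected into the lower hindlimb. Every cell thus carried the Pax7-driven Cre and the YFP allele and had seen tamoxifen, and the sort keeps any cell with YFP. Both kinds of cell went through 1 capture with the 10x 3′ v2 chemistry, which was divided into a 10% and a 90% aliquot. None of the tables used here says which cell came from which muscle. The comparison was therefore made between 2 sets of barcodes defined by depth: shallow non-cycling barcodes with 3000 to 15000 unique molecular identifiers (UMIs) and 0 UMIs of the cell cycle genes Rrm2, Top2a and Cdk1, and deep barcodes with at least 20000 UMIs.

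Tetraspanins are small proteins that cross the membrane 4 times and gather integrins, immunoglobulin-type receptors and proteases into membrane patches. Cd9, Cd81 and Cd63 are also abundant on extracellular vesicles, and Cd63 cycles through late endosomes. In muscle, Cd9 and Cd81 are known for their part in the fusion of myoblasts, and Cd82 is used as a surface marker of human muscle stem cells.

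The 10% library held 157 shallow and 79 deep barcodes with a median of 6729 and 65499 UMIs. The 90% library held 1243 and 606 barcodes with medians of 4680 and 47106 UMIs. All 157 shallow and 79 deep barcodes of the 10% library were also listed in the 90% table, and 144 and 76 of them fell in the same set there. The profiles of 1 barcode in both tables were alike, with a median Pearson's r of 0.929 (shallow) and 0.962 (deep) over 20506 genes on the log2(UMI + 1) scale, against 0.701 and 0.805 between different barcodes. The best match in the other table was the same barcode for 153 of 157 and 79 of 79. The aliquots were therefore not independent samples of cells, and the main levels and folds of the 90% library are also given without the 634 shared barcodes, which left 1000 shallow and 399 deep barcodes. There are no replicates, so no test was run. Intervals are 95% intervals that cover counting error only.

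Both sets held the defining markers of MuSCs. Pax7 was at 27.8 and 18.8 CPM in shallow and 12.2 and 7.80 CPM in deep barcodes of the 10% and 90% libraries, where CPM is the UMIs of a gene summed over a set and scaled to the same total in every set. Of 12 MuSC markers, 9 were at least 2-fold higher in shallow than in deep barcodes in both libraries, from Chrdl2 (155 and 215 against 0.196 and 1.34 CPM) to Pax7. The other 3 were lower in shallow barcodes by less than 2-fold: Itga7, Cdh15 (28.7 and 37.5 against 57.3 and 57.1 CPM) and Des (253 and 305 against 323 and 408 CPM). Of 8 markers of activated or differentiating cells, 7 were at least 2-fold higher in deep barcodes of both libraries, 3 of them (Rrm2, Top2a and Cdk1) at 0 in the shallow set by its definition. The remaining marker, Myod1, a factor of activated MuSCs, was higher in shallow barcodes (1106 and 1069 against 185 and 213 CPM). In the 90% library without shared barcodes 6 of the 8 were at least 2-fold higher in deep barcodes. Myog did not pass there, at 47.1 CPM in shallow and 73.1 CPM in deep barcodes. The shallow set is not called quiescent here, since no label says so. Markers of other cells differed between the sets too. The 10 immune markers summed to 347 and 281 CPM in shallow and 94.1 and 5.66 CPM in deep barcodes, with Ptprc, Coro1a, Lcp1 and C1qa at 0 in the shallow set of the 10% library. In that library only 3 shallow barcodes held an immune UMI, with 385 in 1 of them, and 1 deep barcode held 460. Cd74 alone made up 235 of the 347 CPM, and 5 of the 10 markers were at least 2-fold higher in deep barcodes. All 10 were at least 2-fold higher in shallow barcodes of the 90% library. Without the shared barcodes 8 were, and 1, Ptprc, was at least 2-fold higher in deep barcodes. Cd74 in shallow barcodes was at 39.4 CPM with and 3.38 CPM without the shared barcodes. The 6 fibro-adipogenic markers summed to 301 and 386 against 60.6 and 62.7 CPM, with Pdgfra at 0 in shallow barcodes of both and Lum at 0 in those of the 10% library, and Gsn made up 258 and 325 CPM of the shallow sums. Of these 6, 2 and 3 were at least 2-fold higher in shallow and 3 and 1 in deep barcodes of the 10% and 90% libraries. The 5 endothelial markers summed to 46.7 and 49.4 against 4.71 and 4.15 CPM. In the 10% library the shallow value came from 1 barcode with 52 UMIs, and in the 90% library from 20 barcodes, with up to 112 UMIs in 1. The 5 myofibre markers (56.5 and 82.9 against 34.1 and 50.8 CPM), the 3 smooth muscle or pericyte markers (79.9 and 88.7 against 77.9 and 47.6 CPM) and the 3 glial markers (60.1 and 2.64 against 1.37 and 0.971 CPM) were also measured. Only 2 shallow barcodes of the 10% library held a glial UMI, with 66 in 1 of them. Leaving out barcodes with 2 or more immune marker UMIs gave log2 folds of 1.03 and 0.95 for Cd82, 0.87 and 0.50 for Cd9 and -0.92 and -1.08 for Cd151, beside 1.05 and 0.93, 0.78 and 0.50, and -0.93 and -1.11 with all barcodes. The part of the other cell types' markers in the values was not tested.

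Cd82 and Cd9 were higher in shallow non-cycling barcodes, and Cd151 was higher in deep barcodes. Cd81 and Cd63 were within 1.2-fold of equal between the sets, and Tspan3 and Tspan4 were up to 1.28-fold higher in deep barcodes. At a limit of 2-fold, 1 of 7 tetraspanins with at least 20 UMIs passed in the 10% library (Cd82), and 2 of 8 passed in the 90% library with and without the shared barcodes (Cd53, higher in shallow, and Cd151, higher in deep). Cd53 reached 20 UMIs only through the shallow set, with 27 against 2 UMIs and 21 against 0 UMIs. Its call thus follows from the filter and says nothing further. Leaving Cd53 aside, Cd151 was the only member to pass there. Cd82 and Cd151 lie close to this limit, so which of them passed changed with the processing. In the 10% library Cd82 did not pass with barcodes thinned to 3000 UMIs (log2 fold 0.94), with no cell cycle condition (0.93) or in long reads (0.86), and with the mean over barcodes Cd151 passed (-1.08) in place of Cd82 (0.88). When folds were centred on the median gene, Cd82 passed in the 90% library (1.17) in place of Cd151 (-0.87). Of all genes with at least 20 UMIs, 48.7 percent passed this limit in the 10% library (16.4 higher in shallow, 32.3 higher in deep), 50 percent in the 90% library (19.5 and 30.5) and 49.6 percent without the shared barcodes (19.1 and 30.5). A 2-fold difference between these sets was thus common among genes, and the members' counts are read against that. The median log2 fold of all genes, shallow over deep, was -0.32, -0.27 and -0.27, so a tetraspanin with equal CPM in both sets stood above the middle of the genes. The median over the members was 0.01, 0.13 and 0.12.

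**Figure D1:**
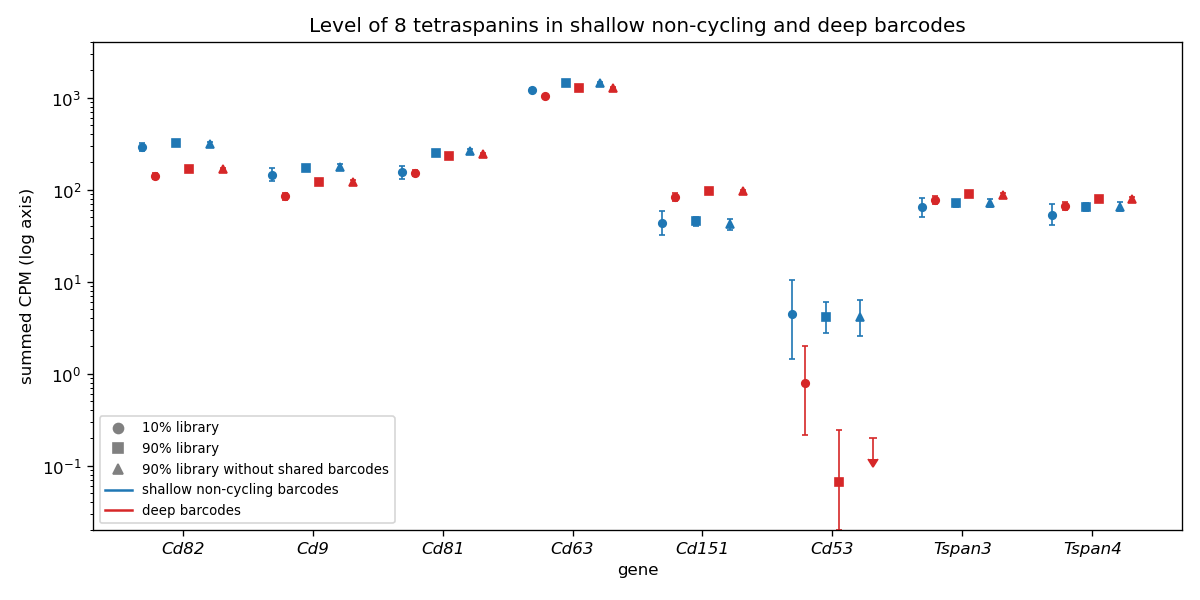
Summed CPM of each tetraspanin (log axis) in shallow non-cycling (blue) and deep (red) barcodes of the 10% library (circles), the 90% library (squares) and the 90% library without shared barcodes (triangles). Bars are exact Poisson 95% intervals, and the arrow marks the upper limit of Cd53 at 0 UMIs. Cd82 and Cd9 lie higher in shallow and Cd151 lies higher in deep barcodes in all 3.

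Cd82, which restrains cell motility and the signalling of its partner receptors, stood at 293 CPM (262 to 326) in shallow and 141 CPM (131 to 152) in deep barcodes of the 10% library. In the 90% library it stood at 322 CPM (308 to 336) and 169 CPM (165 to 174). Without the shared barcodes the levels were 312 and 167 CPM. The intervals of the sets did not overlap in any of these. The fold was 2.07 (1.81 to 2.36), 1.90 (1.8 to 2.0) and 1.87 (1.76 to 1.99), and 84.4, 79.3 and 79.3 percent of all genes tested had a lower fold. Cd82 had a UMI in 113 of 157 shallow and 74 of 79 deep barcodes of the 10% library. When each barcode was thinned to 3000 UMIs, the shares were 56.1% (47.9 to 64.0) and 39.2% (28.4 to 50.9), and in the 90% library 54.1% (51.3 to 56.9) and 36% (32.1 to 39.9). Against this, Cd82 had a UMI in 1 of 6 and 2 of 15 immune-marker barcodes, whose median depth was 7816 and 9265 UMIs. Barcodes under 1000 UMIs that only 1 table lists held Cd82 at 92.0 CPM (54.5 to 145) in the 90% library, over 493 barcodes, and at 207 CPM (67.1 to 482) in the 10% library, over 1357 barcodes with 24196 UMIs in all.

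Cd9, which holds together membrane patches used in cell fusion, was at 146 CPM (125 to 170) in shallow and 84.9 CPM (77.1 to 93.3) in deep barcodes of the 10% library. In the 90% library it was at 174 CPM (164 to 184) and 123 CPM (119 to 127). The fold was 1.72 (1.43 to 2.07) and 1.41 (1.32 to 1.51), and 1.44 (1.33 to 1.55) without the shared barcodes. The thinned shares did not separate, at 24.8% and 24.1% of barcodes in the 10% library and 32.2% and 30.9% in the 90% library, and they were 32.7% (29.8 to 35.7) and 27.1% (22.8 to 31.7) without the shared barcodes. In immune-marker barcodes Cd9 had 5 UMIs in the 10% library, a level of 81.9 CPM (26.6 to 191), and 24 UMIs in the 90% library, a level of 192 CPM (123 to 285).

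Cd81, the partner of Cd9 in fusion, did not separate the sets in the 10% library, with 154 CPM (132 to 179) in shallow and 153 CPM (143 to 164) in deep barcodes. In the 90% library it was at 252 and 234 CPM. The folds were 1.01 (0.849 to 1.19), 1.07 (1.02 to 1.13) and, without shared barcodes, 1.083 (1.02 to 1.15). Cd81 differed more between the libraries than between the sets.

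Cd63, the late endosomal member, was at 1220 CPM in shallow and 1038 CPM in deep barcodes of the 10% library, at 1436 and 1284 CPM in the 90% library, and at 1439 and 1288 CPM without the shared barcodes. The folds were 1.17 (1.11 to 1.25), 1.12 (1.09 to 1.14) and 1.12 (1.09 to 1.15). These counts are uncertain, because the processed pseudogene Cd63-ps carried 86.3% and 87.3% as many UMIs as Cd63 in the shallow and deep barcodes of the 10% library, and 80.2% and 79.7% as many in the 90% library. Cd63-ps had folds of 1.16 and 1.13, close to those of its parent. With both counted together the log2 fold was 0.22 and 0.17. Of the other members, Cd9 had a gene named as its pseudogene in the tables, with 1 UMI.

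Cd151, which binds laminin receptors such as integrins Itga3, Itga6 and Itga7, was the member higher in deep barcodes. It had 49 UMIs in shallow and 426 in deep barcodes of the 10% library, or 44.0 CPM (32.5 to 58.1) and 83.5 CPM (75.8 to 91.9). In the 90% library the levels were 45.3 CPM (40.2 to 50.7) and 97.8 CPM (94.3 to 101.4), and without the shared barcodes they were 42.3 and 95.8 CPM. Deep over shallow, this is 1.90-fold (1.41 to 2.61), 2.16-fold (1.92 to 2.45) and 2.26-fold (1.96 to 2.62). The size depended on the scaling: with each barcode thinned to 3000 UMIs the log2 fold, shallow over deep, was -0.48 in the 10% library and -1.50 in the 90% library. After thinning, Cd151 had a UMI in 10.8% (6.44 to 16.8) and 17.7% (10.0 to 27.9) of shallow and deep barcodes of the 10% library, and in 9.41% (7.85 to 11.2) and 26.6% (23.1 to 30.3) of those of the 90% library. In immune-marker barcodes it had 0 and 1 UMIs.

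Tspan3 was at 64.6 and 76.7 CPM in shallow and deep barcodes of the 10% library and at 71.1 and 91.0 CPM in the 90% library. Deep over shallow it was 1.19-fold (0.921 to 1.55), 1.28-fold (1.16 to 1.42) and, without shared barcodes, 1.24-fold (1.10 to 1.39). Tspan4, which builds the migrasomes that moving cells leave behind on retraction fibres, was at 53.8 and 67.1 CPM and at 64.9 and 80.3 CPM. Its folds in the same direction were 1.25 (0.945 to 1.67), 1.24 (1.11 to 1.37) and 1.22 (1.083 to 1.38). In the 10% library both intervals include 1. Both genes lie within 0.09 of the median log2 fold of all genes in every case.

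Cd53, a tetraspanin of leukocytes, was at the edge of detection. It had 5 UMIs in 1 shallow and 4 UMIs in 2 deep barcodes of the 10% library, 27 UMIs in 7 shallow and 2 UMIs in 2 deep barcodes of the 90% library, and 21 and 0 UMIs without the shared barcodes. Taking 3 UMIs as the floor for the 0, the last is at least 25.7-fold higher in shallow barcodes. All 5, 27 and 21 shallow UMIs lay in barcodes that carried at least 3 immune markers at 1000 CPM or more in sum. There were 6, 15 and 8 such immune-marker barcodes of at least 1000 UMIs, and none of them held a UMI of Pax7, Myf5 or Myod1. Cd53 reached 164 CPM (78.5 to 301) and 263 CPM (181 to 370) there. The other shallow barcodes held 0 Cd53 UMIs.

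**Figure D2:**
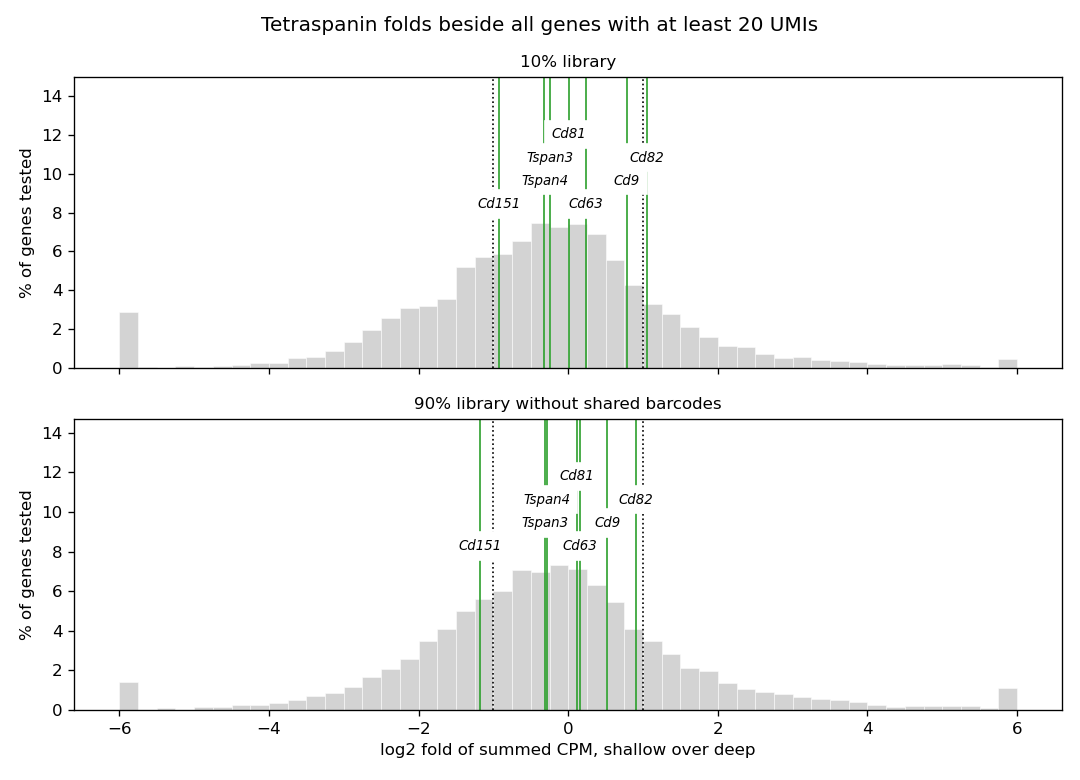
Share of all genes with at least 20 UMIs (grey bars, % of genes tested) by log2 fold of summed CPM, shallow over deep, with the folds of 7 tetraspanins as green lines and the 2-fold limits dotted. Genes beyond 6 on either side, and genes at 0 UMIs in 1 set, stand in the outermost bars. These 7 lie in the central part of the distribution, between -1.18 and 1.05, in the 10% library and the 90% library without shared barcodes. Cd53 is not drawn. With 21 shallow and 0 deep UMIs in the 90% library without shared barcodes, it belongs to the outermost bar there.

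Because the sets were defined by depth, the members were also followed over 8 bins of barcode depth with no cell cycle condition. Cd82 peaked at 330 CPM (308 to 352) in barcodes of 3000 to 5000 UMIs of the 90% library without shared barcodes and was at 102 CPM (82.4 to 125) above 80000 UMIs. In the 10% library the peak was 312 CPM (274 to 354) at 5000 to 10000 UMIs, and the bin of 3000 to 5000 UMIs held only 170 CPM (115 to 241). Cd151 was lowest at the shallow end, with 34.9 CPM (28.1 to 42.7) at 3000 to 5000 UMIs of the 90% library without shared barcodes, and highest at 15000 to 20000 UMIs, with 112 CPM (86.1 to 144). In the 10% library that bin held Cd151 at 57.6 CPM (29.8 to 101), and the highest bin was 20000 to 40000 UMIs, at 115 CPM (88.6 to 148). In the 90% library without shared barcodes, Cd9 was highest in the 32 barcodes of 15000 to 20000 UMIs, at 337 CPM (290 to 389). This lay above both the shallow and the deep set. In the 10% library the corresponding 12 barcodes held Cd9 at 120 CPM (77.6 to 177). There Cd9 was highest at 3000 to 5000 UMIs, at 263 CPM (194 to 348), so the depth at which Cd9 peaked differed between the libraries.

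**Figure D3:**
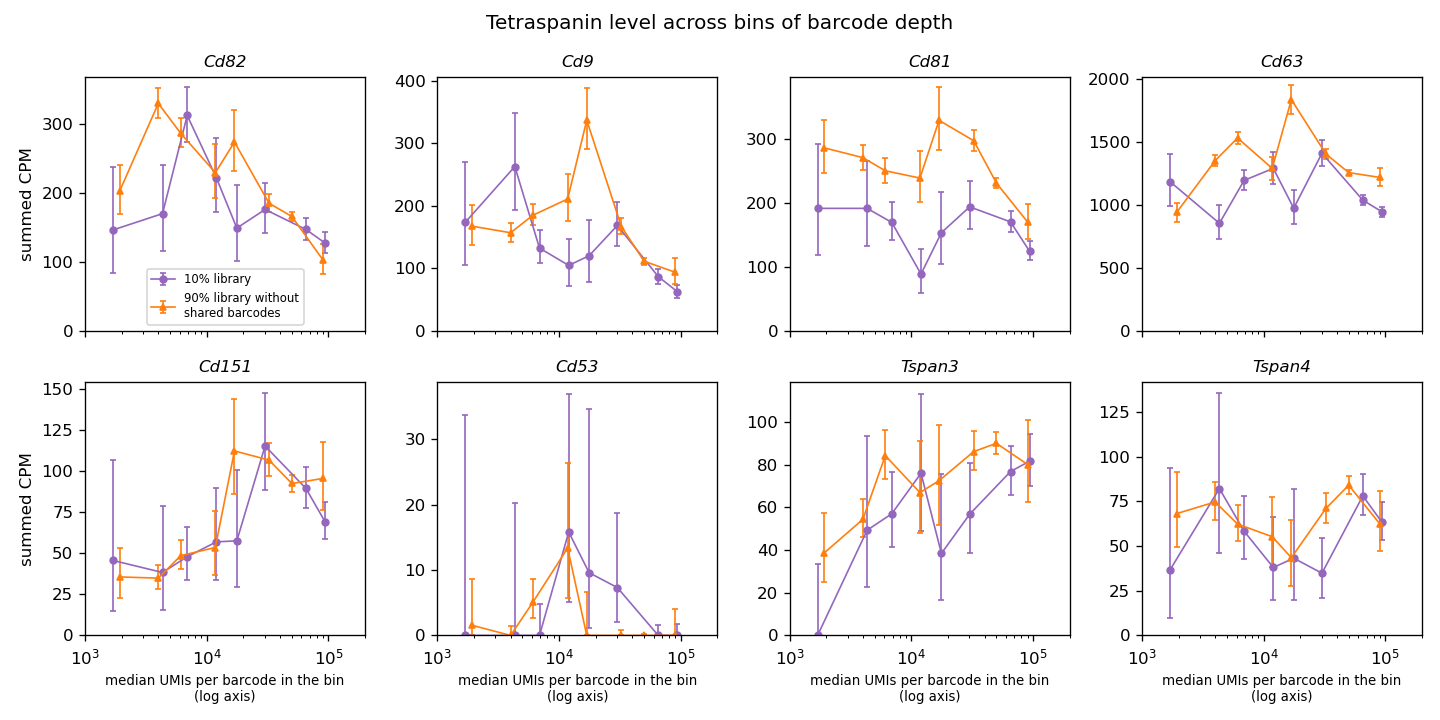
Summed CPM of each tetraspanin by the median UMIs per barcode of 8 depth bins (log axis), for the 10% library (circles) and the 90% library without shared barcodes (triangles), with exact Poisson 95% intervals. Cd82 has its peak of 330 CPM at 3000 to 5000 UMIs and lies at 102 CPM in the deepest bin of the 90% library without shared barcodes, and Cd151 lies between 34.9 and 57.0 CPM up to 15000 UMIs and between 69.3 and 115 CPM from 20000 UMIs.

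Within the shallow set, barcodes with a Myod1 UMI were compared with those without. Cd82 was at 308 and 275 CPM in the 10% library, a fold of 1.12 (0.897 to 1.41), and at 363 and 283 CPM in the 90% library, a fold of 1.28 (1.18 to 1.40). Tspan4 was at 60.6 and 46.1 CPM, a fold of 1.32 (0.764 to 2.31), and at 74.6 and 55.7 CPM, a fold of 1.34 (1.10 to 1.63). Without the shared barcodes the folds were 1.31 (1.18 to 1.45) for Cd82 and 1.47 (1.17 to 1.84) for Tspan4. Cd63 had folds of 1.15 (1.03 to 1.28), 1.12 (1.079 to 1.17) and 1.13 (1.079 to 1.18), and its interval lay above 1 in all 3. Cd81 had 0.763 (0.558 to 1.04), 1.02 (0.926 to 1.13) and 1.00 (0.897 to 1.12). The median depth with and without a Myod1 UMI was 6664 and 6792 UMIs in the 10% library and 4730 and 4613 UMIs in the 90% library.

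Within the deep set, 8 and 74 barcodes had at least 3 UMIs of Myog, a factor of differentiating myoblasts. Tspan4 was lower in them, at 37.2 against 70.4 CPM in the 10% library and 53.8 against 84.0 CPM in the 90% library. The folds were 0.529 (0.314 to 0.840), 0.640 (0.551 to 0.741) and, without shared barcodes, 0.652 (0.544 to 0.777). Cd82 was higher in them, with folds of 1.40 (1.12 to 1.73), 1.14 (1.05 to 1.23) and 1.11 (1.00 to 1.23). Cd151 was at 0.855 (0.593 to 1.20), 0.811 (0.717 to 0.915) and 0.842 (0.725 to 0.973) of its level in the other deep barcodes. Cd81 had folds of 1.23 (0.981 to 1.53), 1.13 (1.06 to 1.21) and 1.07 (0.983 to 1.16), and Cd9 had 1.17 (0.856 to 1.58), 0.952 (0.859 to 1.05) and 0.916 (0.806 to 1.04).

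Over the deep barcodes the tetraspanins varied partly together. Spearman's rho of CPM between Cd81 and Cd9 was 0.37 over the 79 deep barcodes of the 10% library and 0.47 over the 399 deep barcodes of the 90% library without shared barcodes, and between Cd82 and Cd81 it was 0.38 and 0.43. Tspan4 had values between -0.09 and 0.11 with every other member except Tspan3 (0.21 and -0.00). These are descriptions over cells of 1 capture, and all points share its depth differences. Among 4141 genes with a UMI in at least 50% of these barcodes, the gene most like Cd82 was Chrna1, a subunit of the acetylcholine receptor of muscle (0.45 and 0.49), followed by Cd81 (0.38 and 0.43) and Cd63 (0.36 and 0.37). The gene most like Cd9 was Anxa2, a membrane-binding annexin (0.52 and 0.60), followed by Sparc (0.58 and 0.46) and Pkm (0.47 and 0.45). Anxa2 also led for Cd81 (0.48 and 0.50). Cd63 followed its pseudogene (0.97 and 0.97), then Atp5b (0.52 and 0.52) and Anxa2 (0.50 and 0.58). Cd151 followed Cd81 (0.39 and 0.34), Vim and Sparc. For Tspan3 (Tmed2, 0.32 and 0.27) and Tspan4 (Hmga1, 0.28 and 0.28) no gene reached 0.30 in both.

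Of 23 other tetraspanins listed, 17 and 19 were in the tables and 10, 15 and 14 had at least 20 UMIs in the 10% library, the 90% library and the 90% library without shared barcodes. Of these, 2, 4 and 4 were at least 2-fold higher in shallow and 4, 6 and 5 in deep barcodes. Tspan15, which directs the protease Adam10 to its substrates, was at 24.2 against 3.92 CPM and at 30.2 against 2.21 CPM, a fold of 6.18 (3.34 to 11.6) and 13.7 (10.3 to 18.4), and 17.9 (12.2 to 27.1) without the shared barcodes. Tspan7 was at 15.3 against 4.51 CPM and 16.3 against 4.75 CPM, a fold of 3.38 (1.70 to 6.61) and 3.42 (2.64 to 4.44). Tspan6 was lower in shallow barcodes, at 9.87 against 30.2 CPM and 11.3 against 46.3 CPM. Tspan12, a co-receptor in Norrin signalling, had folds of 1.39 (0.811 to 2.30) and 1.61 (1.38 to 1.87), and Tspan5 had 0.647 (0.341 to 1.14) and 0.833 (0.689 to 1.00). Tspan15, Tspan5, Tspan14 and Tspan17 all pair with Adam10, and Tspan15 and Tspan14 differed in opposite directions. Tspan14, named after its values were seen, had 0 UMIs in shallow against 42 in deep barcodes of the 10% library and was at 1.55 against 8.27 CPM in the 90% library. The median log2 fold of these genes was -0.47, -0.26 and -0.08, beside -0.32, -0.27 and -0.27 for all genes.

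Of 35 partners and handling genes, 29, 32 and 32 had at least 20 UMIs, of which 5, 6 and 5 were at least 2-fold higher in shallow and 7, 9 and 7 in deep barcodes. In either direction 41.4, 46.9 and 37.5 percent passed, beside 48.7, 50 and 49.6 percent of all genes, so 2-fold differences were no more common in this list. Among the integrins, Itga3 was nearly confined to deep barcodes, with 1 and 3 shallow UMIs against 55 and 306 deep UMIs (0.897 and 0.465 against 10.8 and 10.2 CPM). Itga7, Itga6 and Sdcbp were named after their values were seen. Itga7, a laminin receptor of muscle, was at 34.1 against 58.4 CPM and 38.3 against 64.7 CPM. Cd151 and these 2 of its partners were thus higher in deep barcodes, while Itga6 had 19 and 39 UMIs in the 90% library, or 2.95 against 1.31 CPM, and 2 UMIs in each set of the 10% library. Sdc4, a syndecan of the MuSC surface that also stands on the MuSC marker list, was 9.75-fold (8.50 to 11.2) and 10.9-fold (10.3 to 11.5) higher in shallow barcodes, while Sdc1 was at 5.38 against 24.7 CPM and 7.13 against 30.5 CPM. Sdcbp (syntenin), which links syndecans to Cd63, was 1.67-fold (1.25 to 2.20) and 1.75-fold (1.61 to 1.91) higher in shallow barcodes. Hbegf, an EGF receptor ligand that binds Cd9, was 4.08-fold (2.99 to 5.55) and 4.87-fold (4.36 to 5.45) higher in shallow barcodes. Timp1, a metalloprotease inhibitor that binds Cd63, was at 26.0 against 169 CPM and 36.6 against 190 CPM.

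Among the 7 members that passed the filter, Cd82 again had the highest and Cd151 the lowest fold in the long reads of the 10% library, while Cd81, Tspan3 and Tspan4 stood in another order. The folds, shallow over deep, were 1.82 (1.70 to 1.95) for Cd82, 1.39 (1.24 to 1.55) for Cd9, 1.11 (1.06 to 1.17) for Cd63, 0.849 (0.754 to 0.953) for Cd81, 0.994 (0.860 to 1.15) for Tspan4, 0.893 (0.771 to 1.03) for Tspan3 and 0.527 (0.450 to 0.614) for Cd151. In long reads 0 of 7 members were at least 2-fold apart, against 49.3 percent of all genes (19.9 higher in shallow, 29.4 higher in deep). Cd81 was the member whose long-read interval lay below 1 while its short-read interval included it. Long-read UMIs were more numerous than short-read UMIs for most members. In the 39 shallow barcodes with exactly 1 short-read Cd82 UMI, the median was 4 long-read Cd82 UMIs and the most was 12. Long-read UMIs of 1 barcode may therefore not all be separate molecules, and intervals from their counts are then too narrow, so isoforms are also given by barcode.

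Isoform shares differed by at least 20 percentage points between the sets in 1 of 7 tetraspanins with at least 50 long-read UMIs in each set, which was Cd82. Over all genes with as many UMIs this held for 17.3 percent (564 of 3265), and the median of the largest difference in a gene was 10.6 points. The largest differences in the members were 27.1 points for Cd82, 17.6 for Cd151, 17.4 for Cd9, 8.00 for Tspan3, 6.96 for Cd63, 5.39 for Tspan4 and 2.31 for Cd81. Cd53 had 5 and 3 UMIs, all on 1 isoform.

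**Figure D4:**
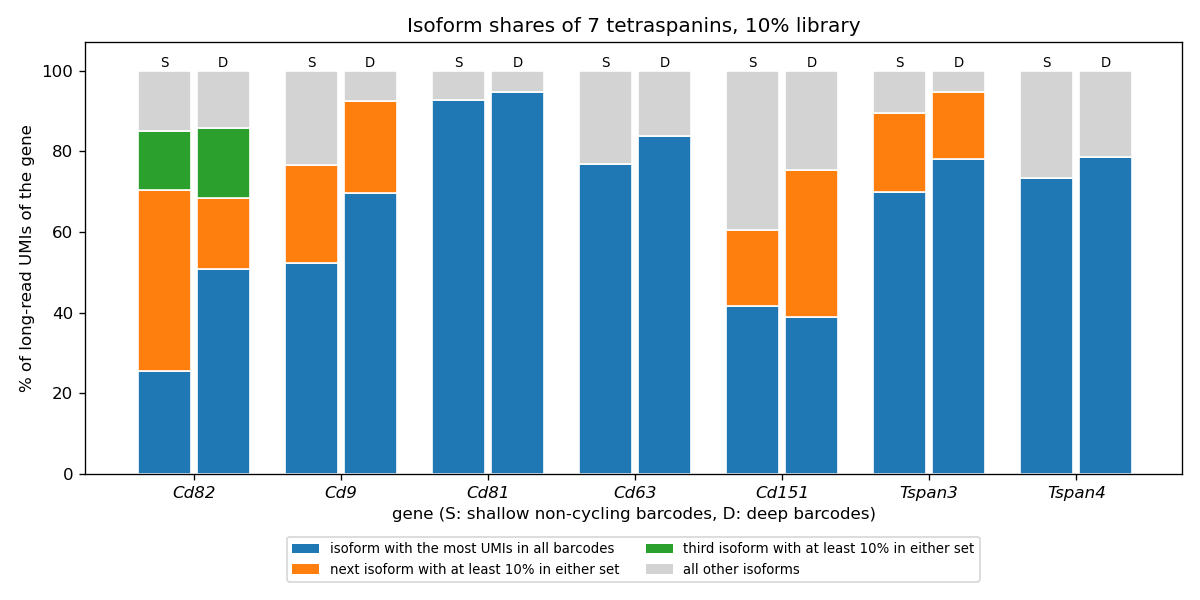
Share of the long-read UMIs of each gene (%) carried by its isoforms in shallow non-cycling (S) and deep (D) barcodes of the 10% library. Colours mark isoforms with at least 10% in either set, ordered by UMIs in all barcodes, and grey the rest. In Cd82 the orange isoform, ENSMUST00000099696.7, takes 44.7% in shallow and 17.6% in deep barcodes.

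Cd82 lies on the minus strand of chromosome 2 (chr2:93419111-93463140, GRCm38) and had 14 counted isoforms. The reference isoform ENSMUST00000099696.7, with 9 exons and a start at 93462411, carried 551 of 1233 UMIs in shallow barcodes, or 44.7% (41.9 to 47.5), and 400 of 2268 UMIs in deep barcodes, or 17.6% (16.1 to 19.3). An isoform without a reference name that starts at 93462912 carried 25.6% (23.2 to 28.2) in shallow and 50.7% (48.7 to 52.8) in deep barcodes. The leading Cd82 isoform thus differed between the sets, by 27.1 points (23.8 to 30.2) for the first and -25.1 points (-28.2 to -21.9) for the second. Another isoform, which starts at 93462400, was at 14.8% and 17.3%. The annotation entry with the name of the second isoform has 10 exons. It holds an exon of 76 bases at chr2:93443369-93443444 that ENSMUST00000099696.7 skips and that the reference transcript ENSMUST00000028644.10 also includes. This exon lies in the 5′ UTR: both reference transcripts start translation at 93437450 and code for 798 bases. The coding lengths of these reference transcripts are equal, but ENSMUST00000028644.10 is not among the counted isoforms. The exons of the second isoform rest on the entry of its name, which has 134 supporting reads beside 1992 UMIs counted in all barcodes. ENSMUST00000099696.7 has 1745 reads beside 1271 UMIs. If the entry describes the counted isoform, the 2 isoforms differ ahead of the start codon, and this was not tested. In the deposited annotation 17 Cd82 isoforms with 4752 supporting reads include the exon and 10 isoforms with 2510 reads that span it do not.

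The junctions that tell inclusion from skipping of this exon are given from 5′ to 3′ as 15 bases on each side, taken from the Gencode transcripts, with the bases of the 76-base exon in capitals. The exon is entered from chr2:93462330-93462344 into chr2:93443430-93443444, and left from chr2:93443369-93443383 into chr2:93437456-93437470. The skipping junction joins the first of these segments to the last, and so holds no capitals.
Cd82 into the exon: gaacccaggcaccagTGTGTCCATTGTCCA
Cd82 out of the exon: CTGGTCACTGAACAGgttgctccaggacct
Cd82 skipping the exon: gaacccaggcaccaggttgctccaggacct

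The difference was also present by barcode. Among barcodes with at least 5 long-read Cd82 UMIs, ENSMUST00000099696.7 held more than 50% of them in 34 of 85 shallow barcodes, or 40.0% (29.5 to 51.2), and in 4 of 65 deep barcodes, or 6.15% (1.70 to 15). Since shallow barcodes hold fewer UMIs and so more extreme shares, the same was computed for 5 UMIs drawn from each barcode, which gave 45.1% and 11.0%. The mean share over all barcodes with a Cd82 UMI was 44.7% over 127 shallow and 19.5% over 77 deep barcodes. Leaving out the barcode with the most Cd82 UMIs gave 44.5% and 16.9%. Within the shallow set the share was 43.3% (39.5 to 47.1) in barcodes with a Myod1 UMI and 46.4% (42.2 to 50.6) in those without, and in the deep set it was 17.1% (14.8 to 19.7) below and 18% (16 to 20.2) above the median depth. Whether the share depends on depth was not tested. The 21 barcodes of shallow depth with a cell cycle UMI held 22.3% (14.4 to 32.1) of 94 UMIs. The 12 barcodes between the sets held 21.6% (14.7 to 29.8) of 125 UMIs. Both summed shares were closer to the deep set. Only 7 of the 21 barcodes had at least 5 Cd82 UMIs, with a mean share of 31.1%. The same mean was 45.4% in shallow and 18.8% in deep barcodes.

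**Figure D5:**
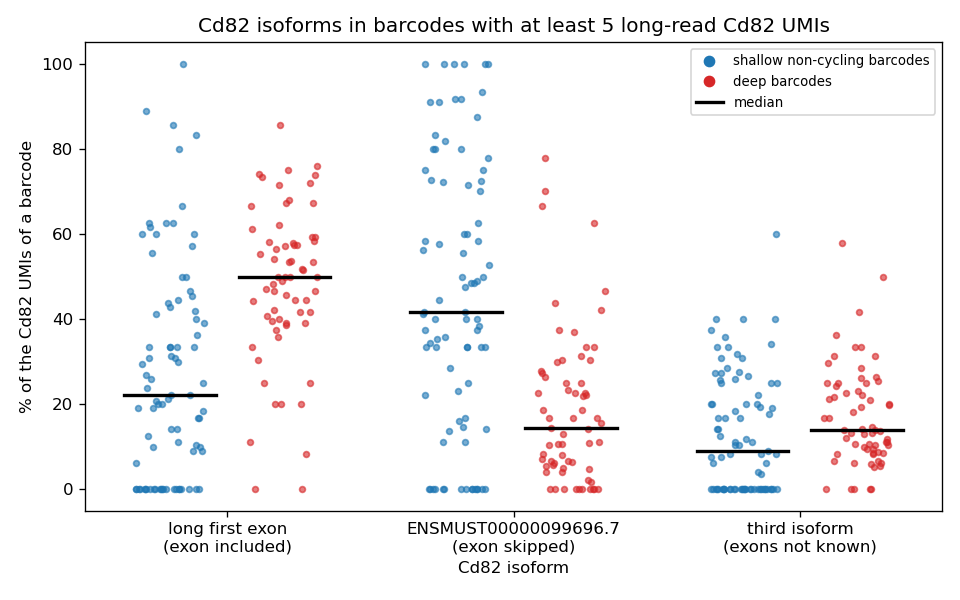
Share of the Cd82 UMIs of a barcode (%) on each of 3 isoforms, 1 point for each of 85 shallow non-cycling (blue) and 65 deep (red) barcodes with at least 5 long-read Cd82 UMIs, with medians as black bars. The median share of ENSMUST00000099696.7 is 41.7% in shallow and 14.5% in deep barcodes, and shallow barcodes spread over the whole range.

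Cd151, on the plus strand of chromosome 7 (chr7:141467392-141471473), had 20 counted isoforms and 192 and 1220 long-read UMIs. ENSMUST00000106000.9 carried 41.7% (34.6 to 49.0) in shallow and 38.9% (36.2 to 41.7) in deep barcodes, a difference of 2.73 points (-4.56 to 10.3). ENSMUST00000177840.8 carried 18.8% (13.5 to 25) and 36.3% (33.6 to 39.1), a difference of -17.6 points (-23.2 to -10.9). The mean share of ENSMUST00000177840.8 over barcodes with a Cd151 UMI was 18.6% over 56 shallow and 32.3% over 72 deep barcodes. The count of barcodes with more than 50% on this isoform did not separate the sets. Of barcodes with at least 5 Cd151 UMIs, 4 of 17 shallow ones, or 23.5% (6.81 to 49.9), had more than 50% on ENSMUST00000177840.8. In deep barcodes this held for 16 of 62, or 25.8% (15.5 to 38.5). The shallow share rests on few barcodes, and in 9 of these 17 all UMIs lay on 1 isoform, against 4 of the 62 deep barcodes. The counting interval is therefore narrower than the spread between barcodes. Within the shallow set, ENSMUST00000177840.8 had 28.6% (19.2 to 39.5) in barcodes with a Myod1 UMI and 11.1% (5.88 to 18.6) in those without. The 21 barcodes of shallow depth with a cell cycle UMI held 10.5% (3.96 to 21.5) of 57 UMIs, further from the deep set. The 12 barcodes between the sets held 48.2% (34.7 to 62.0) of 56 UMIs. The 2 isoforms share the coding start at 141469262 and a coding length of 759 bases, and differ in exon 1, in the 5′ UTR. Their junctions join chr7:141467570-141467584 and chr7:141467452-141467466 to the same exon 2 at chr7:141468419-141468433, given in capitals.
Cd151 ENSMUST00000106000.9: gaggcagagcctgagATCTGGTGGCTCTGA
Cd151 ENSMUST00000177840.8: ttcaaagcgtggttgATCTGGTGGCTCTGA

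Cd9, on the minus strand of chromosome 6 (chr6:125460266-125494791), had its reference isoform ENSMUST00000032492.8 at 52.2% (47.4 to 57.0) of 429 UMIs in shallow and 69.6% (66.7 to 72.4) of 1036 UMIs in deep barcodes. The difference was -17.4 points (-22.8 to -11.9). By barcode, this isoform held more than 50% of the Cd9 UMIs in 14 of 29 shallow and 44 of 49 deep barcodes with at least 5 of them. The 21 barcodes of shallow depth with a cell cycle UMI held 34.5% (22.5 to 48.1) of 58 UMIs on it, further from the deep set. The 12 barcodes between the sets held 57.9% (46.0 to 69.1) of 76 UMIs. An isoform whose start at 125507647 lies 12856 bases upstream of the annotated gene was at 24.5% (20.5 to 28.8) and 22.9% (20.4 to 25.6), a difference of 1.60 points (-3.06 to 6.54). The remainder lay on many minor isoforms. Isoforms with a 3′ end more than 100 bases from the one at 125460266 made up 13.5% (10.4 to 17.1) of shallow and 2.12% (1.33 to 3.20) of deep UMIs, and 44 of these 58 shallow UMIs and 17 of these 22 deep UMIs ended at 125462762, which lies in intron 4 of the reference isoform.

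The other tetraspanins kept 1 leading isoform in both sets. Cd81 (chr7:143052739-143067934) had 92.6% (89.4 to 95.1) and 94.7% (93.4 to 95.8) of its UMIs on ENSMUST00000037941.9. Cd63 (chr10:128900989-128912822) had no counted isoform with a reference name, and its leading isoform carried 76.8% (74.9 to 78.5) and 83.7% (82.8 to 84.6). Tspan3 (chr9:56131725-56165477) had 70.0% (63.8 to 75.7) and 78.0% (75.2 to 80.7) on ENSMUST00000034876.9, and an isoform that starts at 56160953 had 19.6% (14.8 to 25.2) and 16.7% (14.3 to 19.3). Tspan4 (chr7:141475240-141493427) had 73.3% (67.4 to 78.7) and 78.7% (75.8 to 81.4) on ENSMUST00000026585.13. In each of these the leading isoform took the smaller share of the summed shallow UMIs. For Cd81 and Tspan4 the interval of the difference included 0, at -2.12 points (-5.44 to 0.48) and -5.39 points (-11.8 to 0.46), and for Cd63 and Tspan3 it did not, at -6.96 points (-8.97 to -5.01) and -8.00 points (-14.6 to -1.87). For Cd81 and Tspan3 the direction changed between means over barcodes, as given below. Cd63 and Tspan4 kept theirs in the mean over barcodes with a UMI of the gene, at 78.7% against 82.4% and 75.7% against 76.0%. With each isoform counted at most once per barcode, the differences were 22.7 points for Cd81, 18.9 for Cd63, 19.9 for Tspan3 and 22.0 for Tspan4, a setting in which deep barcodes hold more isoforms each. The mean over barcodes of at least 5 UMIs gave 2.05 points for Cd81. For Tspan3 the mean share over barcodes with a Tspan3 UMI was 78.4% in 72 shallow and 74.2% in 68 deep barcodes. In the shallow set 1 barcode held 24 of the 240 Tspan3 UMIs, with 8 on the leading isoform. Leaving out the barcode with the most Tspan3 UMIs in each set gave summed shares of 74.1% and 78.5%. Within the shallow set the summed Tspan3 share was 62.1% (53.6 to 70.0) in barcodes with a Myod1 UMI and 82.1% (72.9 to 89.2) in those without.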

How the data were processed

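Single-cell RNA-seq of 1 capture of mouse MuSCs was used, with 1 library for each of the 2 aliquots. The authors deposited raw UMI counts per gene and barcode, made from Illumina reads with scPipe by the study's methods, and raw long-read UMI counts per isoform for the 10% aliquot, made with FLAMES from nanopore reads aligned with minimap2 to mm10 with Gencode vM24. The submitters' processing notes name Cell Ranger 1.3, with no role given, minimap2 2.17 and GRCm38.p6. Isoforms with fewer than 5 full-length reads, and reads that matched no single isoform, were dropped by the authors. No cell labels or map of cells to muscles were used here, and no cell filter or doublet call was applied beyond the limits on UMIs. The short-read tables hold 6772259 UMIs over 1991 barcodes (10%) and 39044129 over 3001 (90%).

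The deposited counts were summed over the barcodes of a set and scaled to CPM. Genes with at least 20 UMIs over both sets, and for isoforms genes with at least 50 UMIs in each, were compared. Folds have exact conditional, levels exact Poisson, shares Clopper-Pearson and differences of shares Newcombe 95% intervals. Thinning drew 3000 UMIs per barcode without replacement (seed 7). Gene positions, exons and transcript sequences are from Gencode vM21, on the same assembly. The count table and the deposited annotation list different isoforms, so exons were used only for reference-named isoforms or where 1 entry of the same name and ends exists in both. Protein sequences were not used here. Functions were tested on simulated data. Python 3.11.15, scipy 1.17.1 and, for TMM scaling only, edgeR 4.0.16 were used.

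The members, barcode sets and gene lists were chosen with earlier results of these data known. Named were all 8 members, up to 5 genes of each other list with the largest smaller log2 fold of both libraries in 1 direction, isoforms with at least 10% in either set, the 3 genes most like each member by Spearman's rho over deep barcodes (90% library without shared barcodes, a restriction made after the data had been seen). Alternatives were other scalings, set limits, filters and thresholds, and isoforms regrouped, weighted by barcode or without immune-marker barcodes.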

Additional observations from a re-analysis of the deposited data

How the results depend on the processing

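No paired analysis was possible because no test was run and each aliquot is 1 library of the same capture. Of 162 values of the members' folds under the alternatives, 128 stayed inside the interval of the reported value, 34 did not, and none that was 2-fold apart changed direction. Cd82 stayed between 0.86 and 1.33 (10% library) and between 0.86 and 1.17 (90% library) on the log2 scale, always higher in shallow barcodes. Cd151 stayed between -1.08 and -0.48 and between -1.50 and -0.87. Cd81 ranged from -0.24 to 0.29 and from -0.01 to 0.35, so its direction is not settled. In the 10% library Cd63 (thinning, -0.03), Tspan3 (thinning, 0.01, and centring, 0.03) and Tspan4 (mean over barcodes, 0.00) also crossed 0.

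The number of members at least 2-fold apart in the 10% library, reported as 1, was 0 with barcodes thinned to 3000 UMIs, with no cell cycle condition, with long reads and at a limit of 3-fold, 2 with folds centred on the median gene and with no filter beyond 1 UMI, and 3 at a limit of 1.5-fold. In the 90% library, reported as 2, it was 1 with thinning, with the shallow set from 5000 UMIs, without barcodes of 2 or more immune marker UMIs, and at a limit of 3-fold. The count with thinning and the one without immune marker UMIs rest on 7 members, since Cd53 drops out. The number of members with an isoform share at least 20 points apart, reported as 1, was 3 at 10 points, 0 at 30 points, 0 with reference-named isoforms alone, 2 with the mean over barcodes of at least 5 UMIs, and 2 with each isoform counted at most once per barcode. This last alternative, the mean over barcodes with at least 1 UMI, the removal of immune-marker barcodes from isoform shares and that of the shared barcodes were chosen after the data had been seen. Reference-named isoforms alone could show no difference in Cd9, Cd81 and Tspan3, which have 1 such isoform each, or in Cd63, which has 0.

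Of 127 isoform differences under the alternatives, 104 stayed inside the interval of the reported value, and 1 difference of at least 20 points changed direction: the Cd82 isoform that starts at 93462912 was 3.10 points higher in shallow barcodes when each isoform counted once per barcode, where deep barcodes hold more isoforms each by construction. ENSMUST00000099696.7 of Cd82 stayed between 2.81 and 29.4 points, and its smallest value came from reference-named isoforms alone, which leaves out the isoform that starts at 93462912. What limits the depth is the long reads of shallow barcodes, with 192 UMIs for Cd151 and 5 for Cd53. Without replicates, no value here measures the variation between animals.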
